A study of Drosophila melanogaster with 36 samples.

Results

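Hi-C of ovarian somatic cells (OSCs) depleted of HP1a for 2 days (HP1a-KD) was compared with OSCs that received EGFP siRNA for the same time (Control-KD). The comparison takes the HP1a-KD matrix and the Control-KD matrix made for it, and it rests on 4 of the 36 samples of the series, 2 HP1a-KD and 2 Control-KD. OSCs are a cultured Drosophila line of ovarian somatic origin, in which Piwi and piRNAs silence transposons. The series also holds Hi-C, DamID-seq and ChIP-seq of other knockdowns, and asks which silencing and heterochromatin factors shape chromatin conformation. Both groups are the same OSC line, nucleofected once with an siRNA duplex against HP1a or against EGFP, which OSCs lack. Hi-C does not measure HP1a itself, so the depletion could not be checked in these data. By propidium iodide staining, the study found fewer cells in G1 and more in G2-M upon HP1a-KD. It proposes that a global rise of short-range contacts in HP1a-KD may come from this shift in cell cycle, which was not tested here.

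HP1a is the product of Su(var)205, a gene on 2L. Its chromodomain binds histone H3 methylated at lysine 9 (H3K9me3), and dimers of it hold nucleosomes together in pericentromeric heterochromatin, and it also lies at telomeres. In many Drosophila nuclei the chromosome arms lie side by side with centromeres gathered on one side and telomeres toward the other, an arrangement named after Rabl, which Hi-C shows as contacts between like ends of different arms. The reagent that defines the HP1a-KD group is shown here, 5′ to 3′ as the study lists its strands, with the paired bases in capitals and the overhang in lower case.
siHP1a-sense: GAUCUUGGGUGCCUCCGACtt
siHP1a-antisense: GUCGGAGGCACCCAAGAUCtt
All 19 capital bases of one strand pair with those of the other.

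Hi-C cuts fixed chromatin, here with HindIII, joins neighbouring ends and counts joined pairs, so a contact value stands for how often the DNA of 2 bins was joined. Values are for bins of 40 kb on the arms X, 2L, 2R, 3L and 3R of genome build dm3. The authors summed the 2 replicates of each group, so there is 1 matrix per group, with no spread between replicates and no test. In place of a replicate error, each log2 ratio stands beside the differences among 4 Control-KD matrices. They are the one of the HP1a series, those labelled for Nxf2 and for H1 and Egg, and one whose label names no series. Figure legends call the last one the Piwi series, which its label does not state. The root mean square of the 6 pairwise differences is called the control-pair spread, and the largest of them is given as well. These controls differ in depth and series, and only those of HP1a-KD are labelled as 2 days. Dividing out the correction factors of the bins gave back whole contacts, 28869323 in HP1a-KD and 31691817 in Control-KD, against 31120409 to 72450303 in the other Control-KD matrices. Of 2977 bins, 2956 were kept in both matrices. Values below are at equal totals within arms unless stated otherwise.

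Upon HP1a-KD, neighbouring bins were in contact more often and bins farther apart less often, and the distance at which the change turned over was nearly the same on every arm. Bin pairs 40 kb apart had a mean contact value of 1513 in HP1a-KD and 1253 in Control-KD. The other Control-KD matrices had 1373, 1434 and 1352 at this distance. HP1a-KD lay above all 4 controls, and its own Control-KD was the control farthest from it. The log2 ratio of HP1a-KD over Control-KD was 0.27, against a control-pair spread of 0.11 and at most 0.19 in a control pair. At 80 kb the values were 731 in HP1a-KD and 628 in Control-KD (log2 ratio 0.22), against a largest control difference of 0.082. The change at 200 kb, 0.06, was smaller than the control-pair spread there of 0.14. The ratio fell below 0 at 280 kb over all arms, at 240 kb on X, 2R and 3L and at 280 kb on 2L and 3R.

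Contacts between bins 1 Mb apart were fewer in HP1a-KD than in any control. At 1 Mb the contact value was 28.6 in HP1a-KD and 33.9 in Control-KD, and 32.5, 32.4 and 33.3 in the other controls. Here too Control-KD was the control farthest from HP1a-KD. The log2 ratio was -0.25, with a spread of 0.045 and a largest control difference of 0.066. At 400 kb it was -0.15, close to the largest control difference of 0.15, and at 4 Mb it was -0.23, against 0.11. The lowest ratio up to 4 Mb, -0.27, was reached at 3.72 Mb. Beyond 8 Mb the change became small, with -0.10 at 10 Mb and 0.12 at 16 Mb, both inside the largest control differences of 0.16 and 0.28. Counting error was minor throughout, with a standard error of the log2 ratio of 0.00668 at 1 Mb and 0.0421 at 16 Mb, and it covers counting only.

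**Figure D1:**
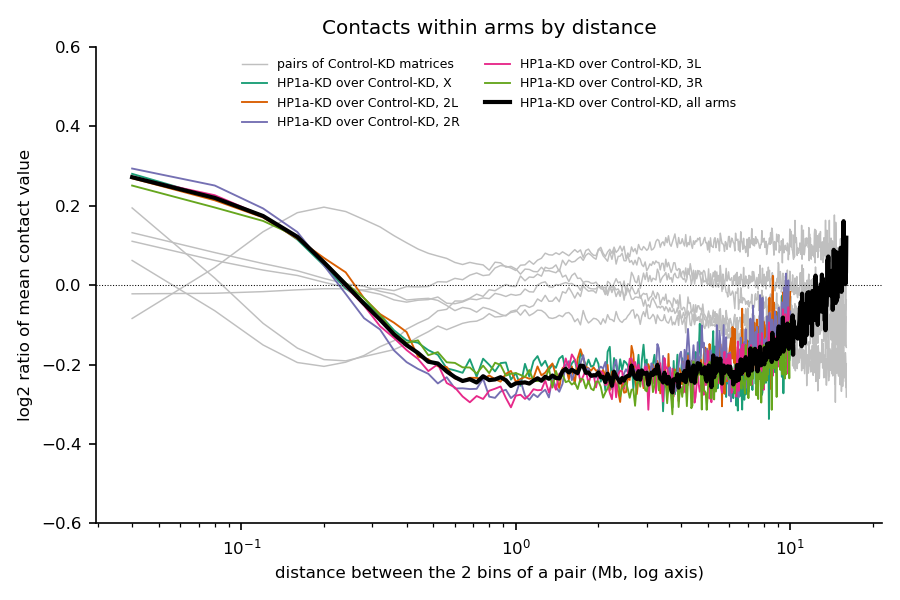
Log2 ratio of the mean contact value within arms against distance (Mb, log axis). Coloured lines are HP1a-KD over Control-KD per arm (to 10 Mb), the black line is all arms, and grey lines are the 6 pairs of Control-KD matrices, whose sign is arbitrary. All arms lie above the grey lines at 40 kb, cross 0 at 240 to 280 kb and lie below the grey lines at 1 Mb.

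The 5 arms had similar changes. Contacts at 40 to 400 kb were higher in HP1a-KD by 0.16 to 0.19 on the log2 scale, with 2R highest and 3R lowest, and contacts at 440 kb to 1 Mb were lower on every arm, by -0.19 on X and 3R to -0.25 on 2R and 3L. At 1 to 4 Mb the arms ran from -0.21 on X to -0.25 on 3R. Each of these values was larger in size than the largest difference of a control pair on that arm. Over 4 Mb the log2 ratios of -0.13 to -0.17 exceeded the largest control difference on X, 2R and 3R, and not on 2L and 3L.

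The share of signal inside single bins, which no ratio above uses, was 17.1% in HP1a-KD and 14.0% in Control-KD, with 15.0% to 16.3% in the other controls. Signal within arms was 70.8% in HP1a-KD and 69.9% in Control-KD. Signal between the arms of 1 chromosome was 3.53% in HP1a-KD and 5.05% in Control-KD, and signal between chromosomes 8.53% in HP1a-KD and 11.0% in Control-KD, where the other controls held 4.73% to 5.35% and 10.4% to 12.6%. HP1a-KD was thus outside the range of the controls in each of the 4 shares.

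On corrected values, the 2 Mb of each assembled arm next to the centromere lost more contact at 1 Mb than the rest. These zones hold 244 of the 2956 bins, the 2 Mb at the telomere ends 249, and the interior 2463. Pairs 1 Mb apart inside the centromere-proximal zones had a contact value of 38.1 in HP1a-KD and 60.4 in Control-KD, with 58.2, 55.2 and 58.9 in the other controls. The log2 ratio was -0.67, against a control-pair spread of 0.076 and at most 0.13 in a control pair. In the interior the same distance had 27.7 in HP1a-KD and 31.9 in Control-KD (log2 ratio -0.20). The difference of the 2 log2 ratios was -0.46, against a largest control difference of 0.080. On contacts before the iterative correction (ICE), the step that makes bin totals equal, it was -0.20, against 0.055, and the coverage of these bins, described below, was higher in HP1a-KD by a median of 0.14. The fold of HP1a-KD over Control-KD in the centromere-proximal zones was 0.63.

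On corrected values, contacts at 1 Mb were lower in all 5 centromere-proximal zones. Before ICE and scaling, the 2L zone held 827 contacts 1 Mb apart in HP1a-KD and 1012 in Control-KD. The 2L interior held 13551 in HP1a-KD and 16856 in Control-KD, so the fall in the 2L zone was no larger. On the other arms the zone fell by more than the interior before ICE, on X with a counting standard error of 0.105. Corrected values follow. On 3L the contact value at 1 Mb was 42.0 in HP1a-KD and 79.2 in Control-KD (log2 ratio -0.92). On 2R it was 56.3 in HP1a-KD and 90.1 in Control-KD (log2 ratio -0.68). On X it was 26.9 in HP1a-KD and 42.6 in Control-KD, with a log2 ratio of -0.66 and the fewest contacts, 324 in HP1a-KD and 453 in Control-KD. The smaller changes were on 3R, with 30.1 in HP1a-KD and 41.8 in Control-KD, and on 2L, with 33.0 in HP1a-KD and 44.3 in Control-KD, log2 ratios of -0.48 and -0.43. On every arm HP1a-KD was below all 4 controls, and the change exceeded the largest control difference, which was 0.094 on 2L and 0.32 on 3L. On corrected values the loss set in at shorter distance as well. At 400 kb the centromere-proximal log2 ratio was -0.31 and the interior ratio -0.13, a difference of -0.18 against a largest control difference of 0.071. Before ICE and scaling, the centromere-proximal zones held 17827 contacts 400 kb apart in HP1a-KD and 21326 in Control-KD. The interior held 188253 in HP1a-KD and 224065 in Control-KD, a nearly equal fall. At 40 kb the corrected log2 ratio was 0.31 in the centromere-proximal zones and 0.27 in the interior.

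**Figure D2:**
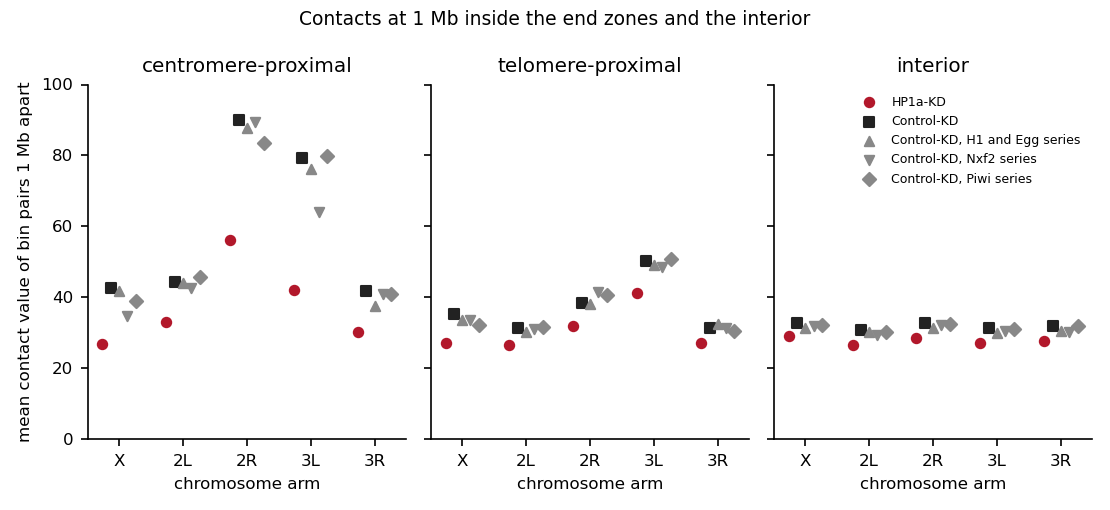
Mean contact value of bin pairs 1 Mb apart, both bins inside the centromere-proximal 2 Mb, the telomere-proximal 2 Mb or the interior, for each arm, at equal within-arm totals. Red points are HP1a-KD, black squares its Control-KD and grey points the other Control-KD matrices. HP1a-KD lies lowest on every arm, with the widest gap in the centromere-proximal zones of 3L, 42.0 in HP1a-KD against 79.2 in Control-KD, and 2R, 56.3 against 90.1.

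Telomere-proximal zones had a milder change on corrected values. Before ICE and scaling, they held 3533 contacts 1 Mb apart in HP1a-KD and 4985 in Control-KD. Centromere-proximal zones held 3761 in HP1a-KD and 5460 in Control-KD, and the interior 68439 and 86358. Both kinds of end zone thus fell to a similar extent before ICE, and more than the interior. Corrected values follow. At 1 Mb the telomere-proximal contact value was 30.7 in HP1a-KD and 37.2 in Control-KD (log2 ratio -0.28), with a largest control difference of 0.027. The counting standard error of this ratio, 0.032, was above that control difference. The difference from the interior was -0.08, against a largest control difference of 0.053. X had the lowest telomere-proximal ratio, -0.37, and 3R the one nearest 0, -0.22, each with a counting standard error of 0.075.

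Summed over 40 to 400 kb, where the nearest bins weigh most, the zones differed little. The contact value per bin was 470 in HP1a-KD and 431 in Control-KD in centromere-proximal zones, a log2 ratio of 0.13, and 370 in HP1a-KD and 328 in Control-KD in the interior, a ratio of 0.17. The difference of -0.05 did not exceed the largest control difference of 0.069. On 2L it was -0.10, against 0.033, and on 3R 0.03, against 0.042. Contacts counted before ICE turned this difference to 0.11, against a largest control difference of 0.10. Coverage, the contacts of a bin with all others before ICE at equal within-arm totals and centred on the arm, had a median change of 0.14 in the centromere-proximal bins, higher in 192 of 244, where control pairs reached 0.070. The coverage change of telomere-proximal bins was -0.06 and that of interior bins -0.0045. The part of coverage in the changes of corrected values was not tested.

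Contacts between chromosomes were fewer upon HP1a-KD, those between like arm ends included. The mean value over 2763043 bin pairs was 0.845 in HP1a-KD and 1.11 in Control-KD, with 1.05, 1.34 and 1.19 in the other controls. The log2 ratio was -0.39, beside a spread of control pairs of 0.22 and a largest control difference of 0.36. This narrow excess depended on the scaling in size, with -0.32 at equal totals over all bin pairs, where control pairs reached 0.29. It was -0.35 for values as deposited, and control differences at that scaling were not computed. Between the arms of 1 chromosome, 2L with 2R and 3L with 3R, the mean was 1.33 in HP1a-KD and 1.94 in Control-KD (log2 ratio -0.54), against a largest control difference of 0.26. All 10 pairs of arms were lower, the least for 2L with 3R, -0.20, and the most for 2L with 2R, -0.59. Among pairs of different chromosomes, 2L with 3R had the highest value in both matrices, 1.44 in HP1a-KD and 1.66 in Control-KD, and its change was inside the largest control difference of 0.25. The changes of 2R with 3L, -0.39, and 2R with 3R, -0.41, were also inside the largest control difference of 0.43, and the other 7 pairs were each beyond their own largest control difference.

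Like ends of different chromosomes met less often in HP1a-KD, while the mean of unlike ends was higher but within the range of the controls. Centromere ends of different chromosomes had a mean contact value of 1.82 in HP1a-KD and 2.74 in Control-KD, with 2.55, 3.09 and 2.88 in the other controls, a log2 ratio of -0.59 with a largest control difference of 0.28. Telomere ends of different chromosomes had 2.54 in HP1a-KD and 4.04 in Control-KD, with 3.80, 4.57 and 3.96 in the other controls, a log2 ratio of -0.67 with a largest control difference of 0.26. HP1a-KD was below all 4 controls in both. Interiors of different chromosomes had also changed, by -0.43, with a largest control difference of 0.36. Before ICE and scaling, centromere ends held 26116 contacts in HP1a-KD and 38316 in Control-KD. Interiors held 1574625 in HP1a-KD and 2345015 in Control-KD, so centromere ends fell no more than interiors. Telomere ends held 49927 in HP1a-KD and 91004 in Control-KD, a larger fall. Telomere ends with centromere ends went the other way, with a corrected value of 0.589 in HP1a-KD and 0.466 in Control-KD (log2 ratio 0.34). This value lay between the controls, which had 0.466, 0.641 and 0.655 in the other series, and the control-pair spread was 0.39.

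**Figure D3:**
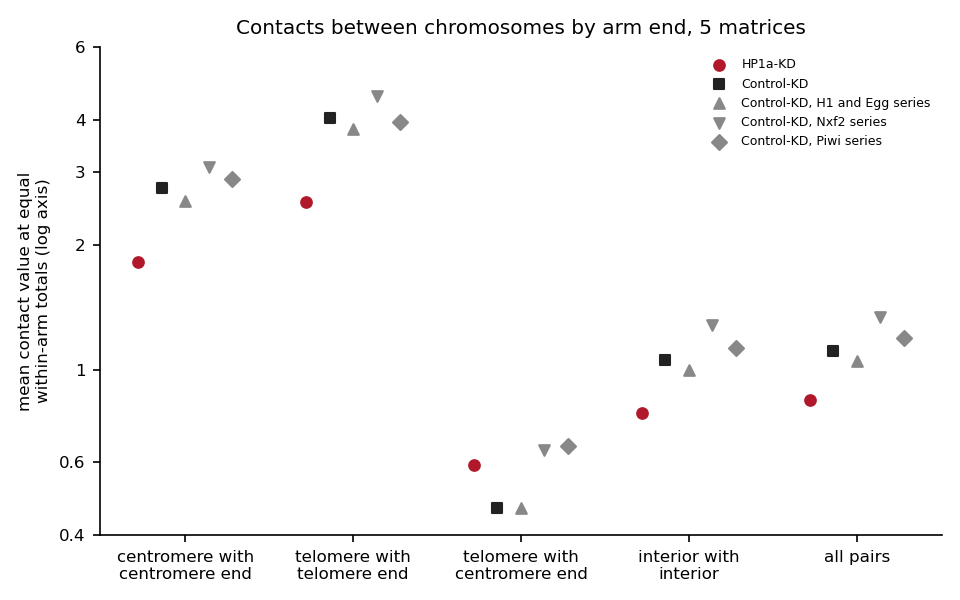
Mean contact value between bins of different chromosomes (log axis), at equal within-arm totals, for pairs of arm ends (2 Mb each), pairs of interior bins and all pairs. Red circles are HP1a-KD, black squares its Control-KD and grey points the other Control-KD matrices. HP1a-KD is lowest for like ends, interiors and all pairs, and for telomere with centromere ends lies between the controls, 0.589 against 0.466 to 0.655.

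Of pairs of zones of different arms, 47.8% were lower in HP1a-KD beyond every control pair and 5.56% higher. All 8 pairs of centromere ends of different chromosomes were lower, 6 of them beyond every control pair, from -0.86 for 2L with 3L to -0.31 for X with 3R. The 4 pairs with the X centromere end had the changes nearest 0, -0.31 to -0.45, and those of X with 3L and with 3R were inside the largest control differences of 0.34 and 0.39. The strongest contact of this kind, between the centromere ends of 2L and 2R, which flank 1 centromere, was 6.34 in HP1a-KD and 12.9 in Control-KD (log2 ratio -1.03), with a largest control difference of 0.099. Across the centromere of chromosome 3 the values were 3.65 in HP1a-KD and 5.54 in Control-KD (log2 ratio -0.60). All 8 pairs of telomere ends of different chromosomes were lower, each beyond every control pair. X with 3R had the largest decrease, with 1.85 in HP1a-KD and 3.58 in Control-KD (log2 ratio -0.95), and X with 2R the smallest, with 3.83 in HP1a-KD and 4.91 in Control-KD (log2 ratio -0.36).

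Contact between unlike ends differed from Control-KD mostly by less than the controls differed among themselves. The 16 pairs of a telomere end with a centromere end of another chromosome had log2 ratios of 0.02 to 0.89, and 2 of them were beyond every control pair. The lowest, of the X centromere end with the 3L telomere end, was smaller than its counting standard error of 0.0588. Of the 4 such pairs between arms of 1 chromosome, 3 were higher beyond every control pair. The 2 ends of the same arm met more often on 3 of the 5 arms. On 3L this value was 1.09 in HP1a-KD and 0.767 in Control-KD (log2 ratio 0.51), with a largest control difference of 0.16, and on 2L it was 0.961 in HP1a-KD and 0.689 in Control-KD (log2 ratio 0.48), with a largest control difference of 0.25. The log2 ratio on 2R, 0.24, exceeded its largest control difference of 0.16, and those on X, 0.25, and 3R, 0.09, did not.

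Like ends over unlike ends, the geometric mean of both like classes divided by the unlike class, was computed after the classes had been seen and does not depend on the scaling. It was 3.65 in HP1a-KD and 7.14 in Control-KD, and 5.16 to 6.69 in the other controls, so Control-KD was the control farthest from HP1a-KD. The log2 change was -0.97, with a spread of 0.29 and a largest control difference of 0.47. The change also depended on the position along the arms. For bins of different chromosomes whose distances from their centromere ends differed by under 4 Mb, the value was 0.966 in HP1a-KD and 1.41 in Control-KD (log2 ratio -0.55). The ratio was -0.45, -0.32 and -0.14 for differences of 4 to 8, 8 to 12 and 12 to 16 Mb. At 16 to 20 Mb the values were 0.596 in HP1a-KD and 0.591 in Control-KD (log2 ratio 0.01). Only the first 2 of these steps exceeded the largest control difference, which was 0.35 in each.

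**Figure D4:**
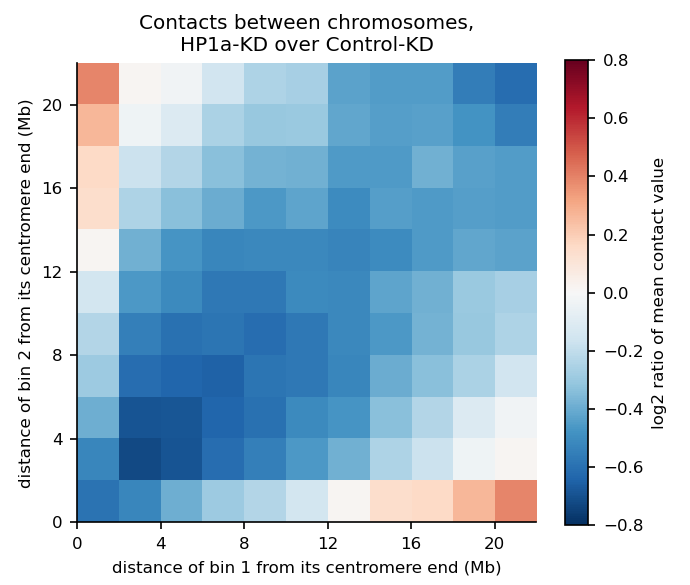
Log2 ratio of the mean contact value between bins of different chromosomes, HP1a-KD over Control-KD at equal within-arm totals, in cells of 2 by 2 Mb by the distance of each bin from the centromere end of its arm. Of 66 different cells, 60 are below 0, the lowest of -0.72 at 2 to 4 Mb from both centromere ends, and 6 are above 0, the highest of 0.39 for the first 2 Mb of one arm with 20 to 22 Mb of another. The ratio over all pairs between chromosomes is -0.39. Control differences were not computed per cell.

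Domain borders became deeper upon HP1a-KD, and most of them lay in the same place in both matrices. The insulation score of a bin is the log2 mean contact across it, between the 5 bins on its left and the 5 on its right, relative to its arm, and a border is a local minimum at least 0.2 deep. HP1a-KD had 313 borders and Control-KD 299. Of these, 279 lay within 1 bin of a border of the other matrix, 89.1% of those in HP1a-KD and 93.3% of those in Control-KD. HP1a-KD alone had 34 and Control-KD alone 20, where control pairs had 11 to 31 on a side. Over the 333 borders of either matrix, the median depth was 1.01 in HP1a-KD and 0.85 in Control-KD, and 276 borders, 82.9%, were deeper in HP1a-KD. The median change was 0.13, against at most 0.055 in a control pair, with an SD over borders of 0.16.

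Contacts on the same side of a border were more frequent in HP1a-KD, and contacts across it differed by less than the control-pair spread. Those on the same side had a mean value of 1034 in HP1a-KD and 868 in Control-KD (log2 ratio 0.25), against a largest control difference of 0.11. Contacts across a border, in the square between the 5 bins on either side, had 134 in HP1a-KD and 135 in Control-KD (log2 ratio -0.0028), with a spread of 0.11. The 2 kinds of contact were not matched for distance, and those across a border span longer distances. Over all arms, log2 ratios were 0.27 at 40 kb, 0.22 at 80 kb, 0.06 at 200 kb and -0.15 at 400 kb. Whether borders differ from other places at equal distance was not tested. Borders were deeper on each arm, with median changes of 0.07 on 3L to 0.16 on 2L. In the centromere-proximal zones 15 of 19 borders were deeper, in the telomere-proximal zones 18 of 23, and in the interior 243 of 291.

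**Figure D5:**
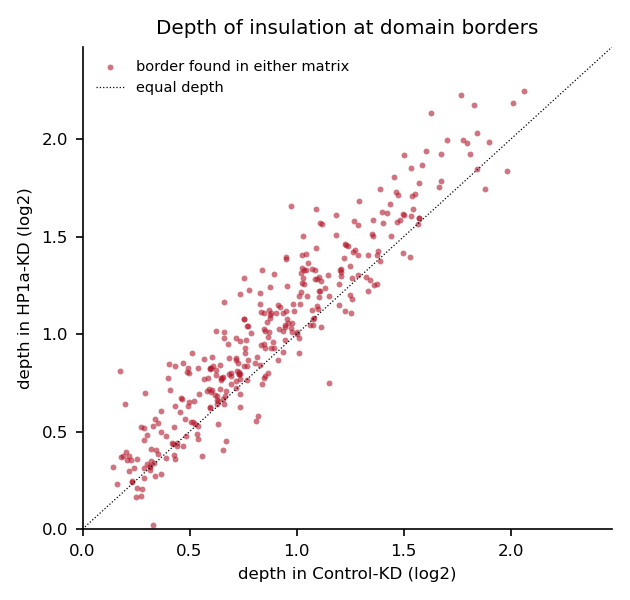
Depth of each of the 333 domain borders found in either matrix, Control-KD on the x axis and HP1a-KD on the y axis (log2 units). The dotted line marks equal depth, and 276 borders lie above it, deeper in HP1a-KD.

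Single bins were then counted as changed past 3 control-pair spreads, taken over the bins of all control pairs. No bin was tested, and the bins of an arm are not independent of each other. For contacts at 40 to 400 kb, after subtracting the arm median, this limit was 0.15. Of 2956 bins, 133 were lower in HP1a-KD, 4.50%, and 90 higher, 3.04%, while the control pair with most had 77 bins on one side. Without subtracting the arm median, which itself was above 0, the same limit gave 3 lower and 1793 higher bins, so lower here means lower relative to the arm. Lower bins made up 11.5% of the centromere-proximal zones, 28 of 244, and 3.86% of the interior, 95 of 2463. On X they were 15 of 46 centromere-proximal bins, and on 3R none of 50. Of the 133 lower bins, 130 were above the median of their arm in contacts between chromosomes, as were 1477 of all 2956 bins, and since ICE sets the total of each bin, less contact in one range must come with more in another. The coverage of these 133 bins had a median change of 0.25, and before ICE their contacts at 40 to 400 kb had a median change of 0.09 with 48 of them lower. The 90 higher bins had a median coverage change of -0.15 and, before ICE, a change of -0.0021.

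The 5 strongest decreases at short range were taken as runs of bins. The largest was the bin from 22960001 to 23000000, the end of the 2L arm at the centromere, where the contact value was 511 in HP1a-KD and 678 in Control-KD, a change of -0.59 relative to the arm with a largest control difference of 0.10. The next was a run from 21760001 to 21880000 on X, 0.6 Mb from the centromere end at its strongest bin, with 179 in HP1a-KD and 234 in Control-KD, a change of -0.57. Its control matrices differed by up to 0.25. The others were weaker, with -0.32 from 4560001 to 4840000 on X, -0.27 from 6000001 to 6040000 on 2R and -0.26 from 18960001 to 19360000 on 2R. The last of these ran across the border of the telomere-proximal zone, with its strongest bin inside that zone. All 5 stayed negative before ICE, with -0.36, -0.34, -0.12, -0.31 and -0.17 in this order.

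The 5 strongest increases held less well. The run from 21120001 to 21280000 on X had 366 in HP1a-KD and 263 in Control-KD at its strongest bin, a change of 0.29 with a largest control difference of 0.094, and 0.23 before ICE. It lay 1.24 Mb from the centromere end, close to the strong X decrease. The runs from 8080001 to 8320000 on 2L, from 17200001 to 17480000 on 3R, from 19200001 to 19600000 on X and from 27640001 to 27760000 on 3R had changes of 0.24, 0.23, 0.23 and 0.23. Before ICE these were -0.03, 0.04, -0.01 and -0.04. Gene content of these runs was not analysed here, since the annotation at hand is of another genome build than dm3.

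Insulation scores were lower in 143 of 2899 bins, 4.93%, and higher in 56, 1.93%, past a limit of 0.24, where the control pair with most had 47. A lower score means fewer contacts across the bin. In the centromere-proximal zones 45 of 214 bins were lower, 21.0%, among them 17 of 43 on 2L and 12 of 45 on 3L, and 1 was higher. In the interior 87 of 2460 were lower and 48 higher. The strongest drop was on 2L from 22160001 to 22520000, 0.56 Mb from the centromere end, where the score was -0.47 in HP1a-KD and 0.30 in Control-KD, a change of -0.77 with a largest control difference of 0.19. A run from 21840001 to 21960000 on X, overlapping the strong short-range decrease, had a score of -0.88 in HP1a-KD and -0.18 in Control-KD. The third, from 1080001 to 1200000 on X, lay in the telomere-proximal zone, with -0.99 in HP1a-KD and -0.40 in Control-KD. The highest gains, 0.37 from 12720001 to 12880000 on X, 0.36 from 18800001 to 18920000 on X and 0.35 from 18360001 to 18440000 on 2R, were smaller. Their largest control differences were 0.235, 0.090 and 0.041.

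Contacts with other chromosomes, relative to the median of the arm, were lower in 42 bins, 1.42%, and higher in 120, 4.06%, past a limit of 0.26, with at most 57 in a control pair. Of the 120 higher bins, 73 were centromere-proximal, 29.9% of those 244 bins, and none of the 42 lower bins was. They were 24 of 50 on 2R, 23 of 46 on X, 15 of 50 on 3L and 11 of 48 on 2L, and on 3R there was none among 50. The 3 strongest increases were in these zones. From 21760001 to 22422827 on X, the end of the arm, the value of the strongest bin was 2.54 in HP1a-KD and 2.10 in Control-KD, a change relative to the arm of 0.77 with a largest control difference of 0.29. From 280001 to 800000 on 2R it was 0.684 in HP1a-KD and 0.561 in Control-KD, a change of 0.73, and from 23640001 to 23960000 on 3L 0.681 in HP1a-KD and 0.604 in Control-KD, a change of 0.60. Summed over each centromere-proximal zone, the change minus that of the interior was 0.32 on X, 0.24 on 3L and 0.23 on 2R, beyond every control pair, 0.11 on 2L, inside the largest control difference of 0.17, and -0.06 on 3R. These gains are relative to the arm. Centromere ends with interiors of other chromosomes had changed by -0.17, within the control-pair spread of 0.33, and interiors among themselves by -0.43. The 3 strongest decreases were on X from 18800001 to 19040000, where the insulation score had risen, and on 3L from 3480001 to 3520000 and from 1480001 to 1520000, with changes of -0.41, -0.41 and -0.40. Their largest control differences were 0.11, 0.11 and 0.265, the last of them past the limit. The second lay 120 kb from a bin kept in only 1 matrix.

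The study's FISH probes fall in 3 of these bins. The bin from 400001 to 440000 on 2L, with the probe for the piRNA target, had a short-range contact value of 343 in HP1a-KD and 299 in Control-KD, and relative to the arm its change was 0.01, within the largest control difference of 0.025. Its insulation score was lower by -0.27, past the limit. On 3L, the bin of one TAD probe, from 17520001 to 17560000, had 264 in HP1a-KD and 223 in Control-KD, 0.06 relative to the arm against a largest control difference of 0.082. The bin of the other TAD probe, from 17920001 to 17960000, had 337 in HP1a-KD and 327 in Control-KD. Its change relative to the arm was -0.14, short of the limit but beyond its largest control difference of 0.027. Of all bins, 6.80% had a lower change.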

How the data were processed

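The authors aligned Hi-C reads of OSCs to dm3 (the labels name cutadapt and Bowtie2 2.2.9) and used HiCExplorer to count contacts between 40 kb bins. They summed replicates, removed bins of low or high coverage, applied ICE and scaled the matrices. What they deposited is a signal, the corrected contacts of each pair of bins, in 1 matrix from 2 replicates per group. The sources used here do not say whether replicates were separate cultures.

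Values were read with Python 3.11.15 and numpy 2.4.6 and plotted with matplotlib 3.10.9. Bins kept in both matrices were used, and each matrix was scaled to the same within-arm total. Contacts before ICE were recovered from the bin factors, and all values under 50 came out whole within 0.01. Without replicates, differences were set beside 6 pairs of 4 Control-KD matrices, and no p-value was computed. Changed bins passed 3 control-pair spreads and were merged where at most 1 bin apart. The 5 strongest runs each way of short-range contacts, the 3 of the other measures and the bins of the study's probes were named. The comparison, zones and regions were chosen with earlier results of these data known. The like over unlike end ratio, the distance steps and the 2 Mb grid were added after the end classes had been seen. Scripts were tested on simulated data. Alternatives covered scaling, ICE, kept bins, zone and square sizes and limits. The siRNA sequences are from the study's supplement and the chromosome of Su(var)205 from RefSeq.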

Additional observations from a re-analysis of the deposited data

How the results depend on the processing

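Of 289 signed values under alternatives, 285 kept the sign reported, and 248 of the 289 moved by less than their control-pair spread. Of 30 counts of bins under alternatives, 14 stayed within 1.5 times the count reported. The difference of centromere-proximal from interior contacts at 40 to 400 kb turned to 0.11 on contacts before ICE, and 3 of the 5 strongest short-range increases turned to -0.0265, -0.0123 and -0.0372. The difference at 1 Mb kept its sign, with -0.20 before ICE, -0.33 in zones of 3 Mb and -0.38 without 3L, and without any single arm it ran from -0.38 to -0.51. With equal totals over all bin pairs, the change at 1 Mb was -0.17. Counts of bins depended on settings. Bins of lower insulation were 323 before ICE, 75 with squares of 400 kb, and 343 and 60 at limits of 2 and 4 spreads. Those of higher insulation were 128, 21, 207 and 10 under the same settings. Lower short-range bins were 3 without centring on the arm, and 405 and 32 at limits of 2 and 4 spreads. Higher short-range bins were 234 before ICE, 142 at 80 to 400 kb, 1793 without centring, and 359 and 15 at limits of 2 and 4 spreads. The centring and the limits act by construction. The cause of the other moves was not tested. Among single regions and arms, 33 of 221 values moved beyond their spread. Counts under other scalings used the limit of the reported fit.

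No paired analysis was possible because the authors merged the replicates of each group into 1 matrix, and leaving out a replicate could not be run for the same reason. Zones of 1 Mb hold no pairs 1 Mb apart. Depth limits little at short distance, since counting errors were far below the differences among controls, which bound what can be told apart here. Inside the end zones at 1 Mb it limits more. In the telomere-proximal zones the counting error there, 0.032, exceeded the largest control difference of 0.027.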
